A study of Mus musculus with 9 samples.

Results

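L122A Nanog was compared with wild-type (WT) Nanog in RF8 mouse embryonic stem (ES) cells cultured with retinoic acid (RA). The libraries were chosen by construct and culture alone, and they are 2 of 9 in the series: L122A RA and WT RA, with 1 library each. Among the 33495 genes counted, 10324 reached 5 CPM (counts of a gene scaled to the library total) in the higher of these libraries, and these are the genes described. Both cultures lacked leukaemia inhibitory factor (LIF) and held 5 µM RA, and both transfectants came from routine culture in 1000 units of LIF per ml with puromycin. The L122A cells carried Nanog with the change named in its label, which the series title places in the homeodomain, and the WT cells carried unchanged Nanog. The other 7 libraries, used here as background, are L122A and WT cells with LIF and without LIF (no-LIF), and cells carrying enhanced green fluorescent protein (EGFP) in all 3 cultures. The labels do not give the species of the construct, its promoter, whether a transfectant was 1 clone, or the time in culture.

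Nanog is a homeodomain transcription factor that helps ES cells to self-renew, together with Pou5f1 (Oct4), Sox2 and Esrrb. LIF acts through its receptor and Stat3 to sustain the naive state. RA binds nuclear RA receptors, shuts down the pluripotency genes and turns on Hox genes and, depending on the culture, neural or extraembryonic endoderm genes.

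The L122A RA library held 28421480 gene counts and the WT RA library 26144980. A level of 5 CPM equals 178 counts in L122A RA and 160 in WT RA, and CPM are scaled by trimmed-mean (TMM) factors. Ribosomal RNA and mitochondrial genes took 16.6% of counts in L122A RA and 19.6% in WT RA. With no replicate of either culture there is no test and no p-value. Intervals given with ratios are exact 95% intervals that cover counting error only, not the spread between cultures. In bulk RNA, fewer cells of a type and less RNA per cell cannot be told apart. Log2 ratios are L122A over WT with a prior count of 2, and a gene is called higher or lower at 2-fold or more.

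Nanog itself (mm9 chr6:122657506-122664651) read 258 CPM in L122A RA and 195 CPM in WT RA, against 0.871 CPM in EGFP RA. Its L122A over WT ratio with RA was 1.33 (1.29 to 1.37), inside 2-fold. In the other cultures Nanog was highest in EGFP cells. With LIF it read 239 CPM in L122A, 222 CPM in WT and 384 CPM in EGFP cells, and without LIF 130, 168 and 290 CPM. Endogenous and construct reads cannot be separated in these counts, so each value gives the sum of both as far as the construct maps to the mouse gene.

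L122A RA cells held more RNA of naive and general pluripotency genes and less RNA of extraembryonic endoderm genes than WT RA cells. In L122A RA, 356 genes were higher (3.45% of those described) and 395 were lower (3.83%), 751 in all (7.27%), and the other 9573 were within 2-fold. At 4-fold or more, 92 were higher and 91 lower. At 8-fold or more, 28 were higher and 23 lower. The median log2 ratio was 0.01, and the 5th and 95th percentiles were −0.85 and 0.81. The interval lay wholly past 2-fold for 536 of the 751 genes. The share past 2-fold was 13.3% among genes whose higher level was 5 to 10 CPM and 5.37% among genes at 100 CPM or more.

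**Figure D1:**
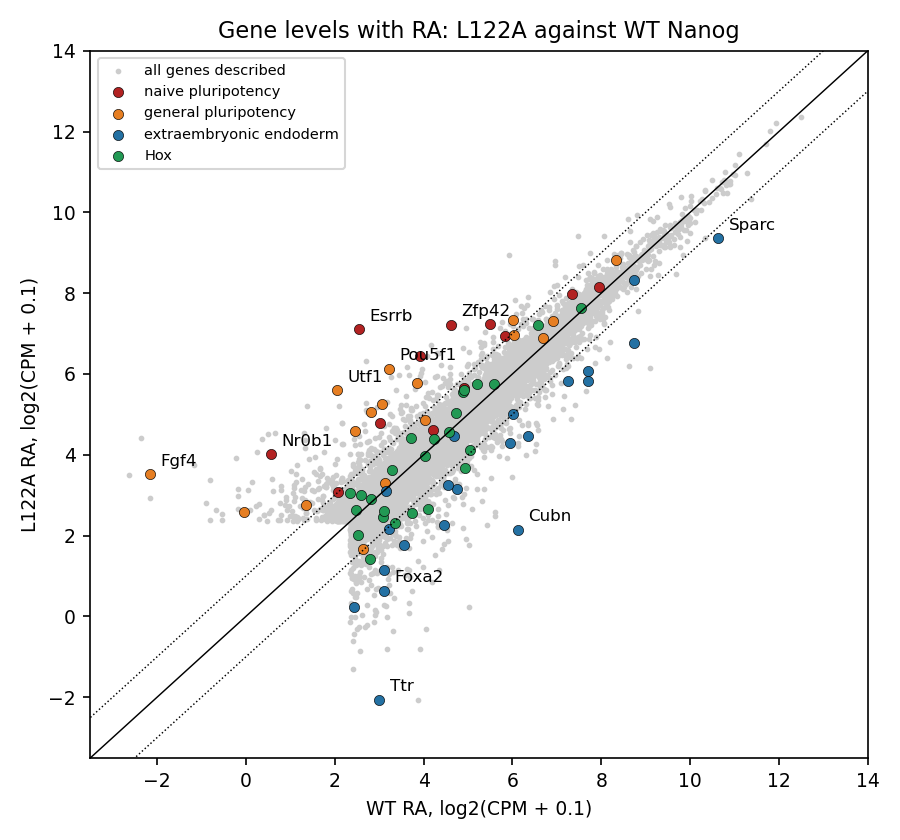
Each point is a gene described, with its level in WT RA on the x axis and in L122A RA on the y axis, as log2(CPM + 0.1). Most of the 10324 genes lie near the diagonal, with 356 higher and 395 lower in L122A RA, with pluripotency genes such as Esrrb and Pou5f1 above it and endoderm genes such as Cubn and Ttr below it; dotted lines mark 2-fold, and members of 4 lists are coloured.

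Promoter windows are shown for 5 of the genes that follow, chosen because they differ between the libraries and hold a motif that was searched for. Each is the 250 bases before a RefSeq start site (GRCm38.p6), 5′ to 3′ on the gene's strand, with the motif match in capitals. They show a POU octamer (ATGCAAAT), a Nanog-type homeodomain site (TAATGG) or a GATA site (AGATAA), read on either strand. Foxa2, a lower gene, has another window, not shown, with a homeodomain site at −218 to −213 from its start site. The Zfp42 window is chr8:43307010-43307259 on the minus strand, Nodal chr10:61417722-61417971 on the plus strand, Dnmt3l chr10:78055085-78055334 on the plus strand, Foxa2 chr2:148045465-148045714 on the minus strand and Krt8 chr15:102004343-102004592 on the minus strand.
Zfp42, octamer, higher in L122A RA: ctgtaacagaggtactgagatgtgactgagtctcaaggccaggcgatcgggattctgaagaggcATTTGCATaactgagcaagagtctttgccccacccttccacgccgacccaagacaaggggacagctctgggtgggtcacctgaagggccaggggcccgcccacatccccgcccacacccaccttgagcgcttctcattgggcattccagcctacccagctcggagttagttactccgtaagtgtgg
Nodal, homeodomain site, higher in L122A RA: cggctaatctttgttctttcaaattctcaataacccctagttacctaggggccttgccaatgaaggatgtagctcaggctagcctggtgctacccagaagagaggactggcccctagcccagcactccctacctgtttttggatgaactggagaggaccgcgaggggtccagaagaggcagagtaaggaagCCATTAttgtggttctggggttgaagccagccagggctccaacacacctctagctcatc
Dnmt3l, homeodomain site, higher in L122A RA: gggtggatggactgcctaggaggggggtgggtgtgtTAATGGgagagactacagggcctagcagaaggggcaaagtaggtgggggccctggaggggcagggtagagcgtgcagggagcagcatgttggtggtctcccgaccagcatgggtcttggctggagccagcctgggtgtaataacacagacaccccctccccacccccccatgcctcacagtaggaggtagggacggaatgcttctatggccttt
Foxa2, GATA site, lower in L122A RA: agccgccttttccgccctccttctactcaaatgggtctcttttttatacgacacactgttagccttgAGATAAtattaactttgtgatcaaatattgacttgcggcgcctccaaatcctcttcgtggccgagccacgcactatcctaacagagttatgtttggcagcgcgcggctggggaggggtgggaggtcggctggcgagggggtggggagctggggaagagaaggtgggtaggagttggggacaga
Krt8, GATA site, lower in L122A RA: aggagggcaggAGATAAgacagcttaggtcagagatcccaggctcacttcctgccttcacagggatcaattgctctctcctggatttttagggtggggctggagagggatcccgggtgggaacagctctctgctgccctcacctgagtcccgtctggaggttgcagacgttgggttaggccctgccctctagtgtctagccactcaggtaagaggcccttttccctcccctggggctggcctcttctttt

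Of the described genes, 8039 had such a window by symbol, 250 of them higher and 295 lower in L122A RA. The octamer was in 10 of the higher genes (4%), 6 of the lower genes (2.03%) and 1.4% of the genes within 2-fold, and in 1.6% of all 32851 windows. TAATGG was in 22 higher genes (8.8%), 16 lower genes (5.42%) and 4.62% of genes within 2-fold, and in 6.57% of all windows. AGATAA was in 6% of higher genes, 6.78% of lower genes and 6.14% of genes within 2-fold, and in 9.99% of all windows. The longer Esrrb-type motif TCAAGGTCA and the RA receptor direct repeat were in none of the higher or lower genes, and in 0.387% and 0.00913% of all windows. Among the 8039 described genes they were in 19 (0.236%) and 0, too few for their absence to be read. A gene with several start sites counts once if any window holds the motif. A match describes letters in a window and not a bound site.

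Of 12 naive pluripotency genes described, 8 were higher in L122A RA, none lower, and all 12 lay above 0. Over all described genes, 3.45% were higher and 3.83% lower. The 16 listed genes had a median log2 ratio of 1.72, against −0.03 for all genes with a count. Of these 16, 15 lay above 0, and 1, under 5 CPM in both libraries, lay below at −1.09. Esrrb (mm9 chr12:87702066-87862575), an orphan nuclear receptor of the naive network, read 138 CPM in L122A RA and 5.75 CPM in WT RA, against 0.156 CPM in EGFP RA. That is a ratio of 23.9 (20.6 to 27.9). With LIF the same gene read 187 CPM in L122A, 126 CPM in WT and 115 CPM in EGFP cells, so L122A and WT were within 2-fold there. Nr0b1 (Dax1), a partner of Pou5f1 and Esrrb, read 16.01 CPM in L122A RA and 1.38 CPM in WT RA, a ratio of 11.6 (8.56 to 16.2). Zfp42 (Rex1), a marker of naive cells, read 149 CPM in L122A RA, 24.3 CPM in WT RA and 6.19 CPM in EGFP RA. Tfcp2l1 was at 87.3 CPM in L122A RA and 15.0 CPM in WT RA, and Klf5 at 150 CPM and 45.1 CPM in the same order; both encode transcription factors of the naive network. Tbx3 and Klf4, also factors downstream of LIF, were within 2-fold, with log2 ratios of 0.20 and 0.40. Prdm14 fell below the level limit, with 81 counts in L122A RA and 0 in WT RA, a ratio of 24.2 when WT RA is set at a floor of 3 counts per library, with the lower limit of the exact interval at 19.2.

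General pluripotency genes showed the same direction, with 10 of 17 described genes higher and none lower, beside 3.45% and 3.83% of all described genes. The 19 listed had a median of 1.41, against −0.03 for all genes with a count. Fgf4, the autocrine FGF ligand of ES cells and a target of Pou5f1 and Sox2, had 407 counts in L122A RA and 4 in WT RA. These are 11.4 CPM and 0.125 CPM, a ratio of 91.2 with a wide interval of 35.4 to 336. Utf1, a chromatin factor, read 48.4 CPM in L122A RA and 4.03 CPM in WT RA, a ratio of 11.99 (10.02 to 14.5). Pou5f1 read 70.0 CPM in L122A RA, 9.22 CPM in WT RA and 0.467 CPM in EGFP RA, while with LIF it was at 453, 444 and 283 CPM in L122A, WT and EGFP cells. Sox2 read 24.1 CPM in L122A RA and 5.38 CPM in WT RA, a ratio of 4.48 (3.80 to 5.31). Sall4 stayed within 2-fold at 119 CPM in L122A RA and 103 CPM in WT RA. Lin28a, an RNA-binding protein that blocks let-7 maturation, went the other way inside 2-fold, at 3.06 CPM in L122A RA and 6.10 CPM in WT RA. Formative and primed epiblast genes, a separate list, did not share the direction of the naive and general lists. Of 7 described, 2 were higher and none lower, with 2 above 0 and 5 below. Their median was −0.005 over the 13 with a count, and their summed level was 478 CPM in L122A RA and 608 CPM in WT RA.

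Relative to each transfectant's own LIF culture, L122A cells kept a larger share of the naive and general pluripotency RNAs with RA. Over the 34 listed genes at 5 CPM or more in both Nanog LIF libraries, the median level with RA was 31.1% of the LIF level in L122A, 8.83% in WT and 1.90% in EGFP cells. The L122A share was above the WT share for 31 of the 34. Esrrb kept 73.7% in L122A, 4.55% in WT and 0.136% in EGFP cells, and Pou5f1 kept 15.5%, 2.08% and 0.165%. The exceptions were Lin28a, Nr5a2 and Tbx3. Tbx3 was above its LIF level in every transfectant, at 532% in L122A, 658% in WT and 377% in EGFP cells. The LIF columns of all 3 transfectants were assigned by elimination, so these shares, and every other LIF value, rest on that reading of the file.

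**Figure D2:**
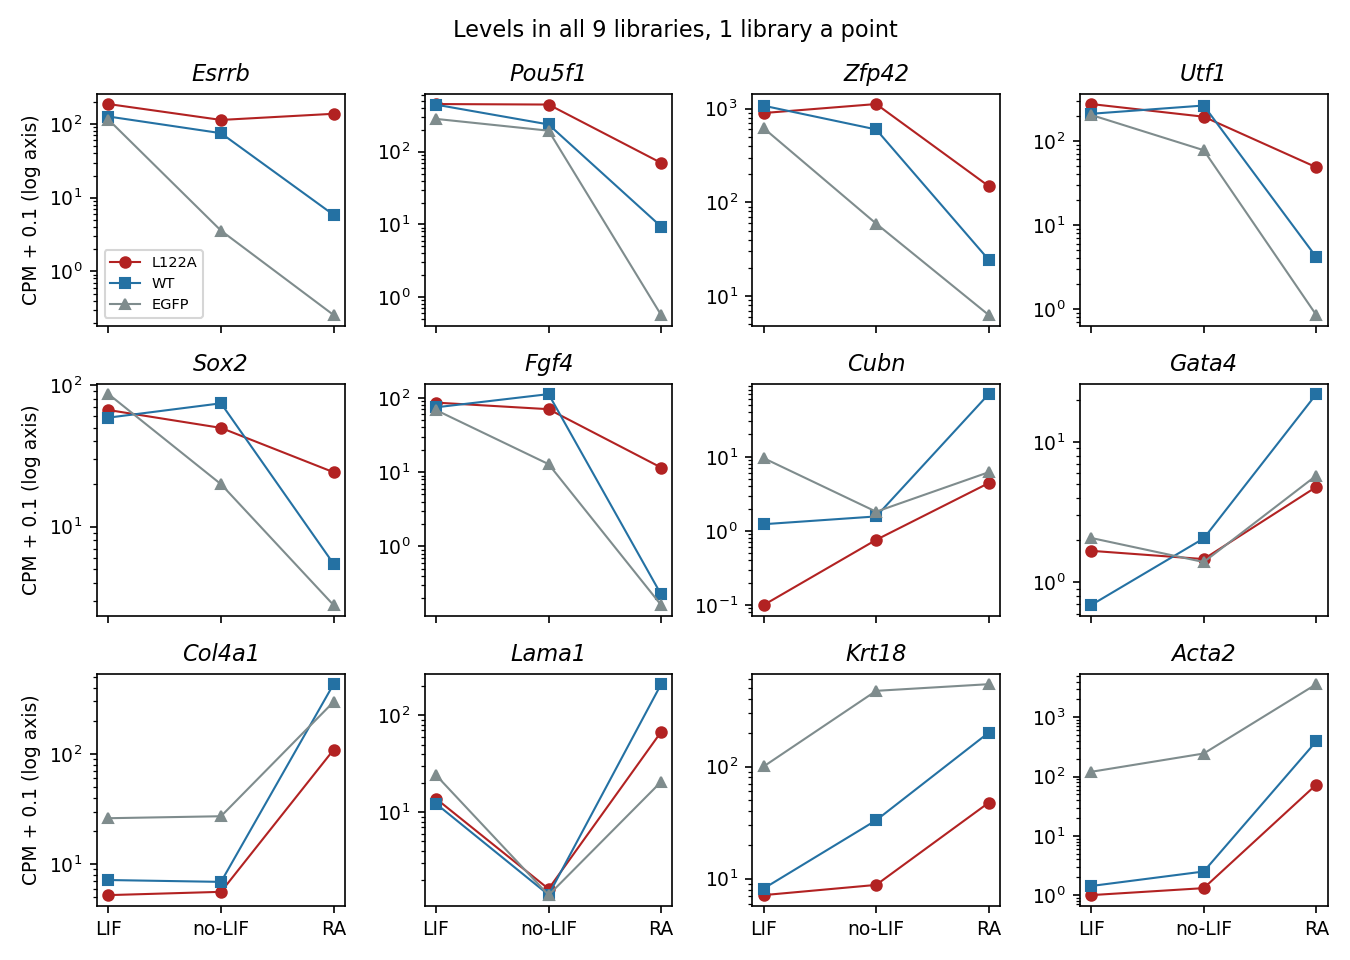
Levels of 12 genes in all 9 libraries, as CPM + 0.1 on a log axis, by culture from LIF to no-LIF to RA, with a line for each transfectant (L122A, WT, EGFP) and 1 library a point. With RA the L122A points lie above WT for Esrrb (138 and 5.75 CPM) and Pou5f1 (70.0 and 9.22 CPM), and below WT for Cubn (4.32 and 69.9 CPM).

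Of 11 described FGF and ERK feedback genes, 10 lay above 0 in L122A RA over WT RA. Among them 4 were higher and 1 lower (3.45% and 3.83% of all described genes), with a median of 0.93 over 15 listed. Etv5, an ETS factor induced by ERK, read 150 CPM in L122A RA and 25.8 CPM in WT RA. Its relative Etv4, from the formative and primed epiblast list and not counted here, read 25.3 CPM and 3.38 CPM in the same order. The feedback inhibitors Spry4 and Dusp6 had ratios of 4.35 (3.73 to 5.10) and 2.61 (2.36 to 2.89). The receptor Fgfr2 was the lower member, at 36.6 CPM in L122A RA and 112 CPM in WT RA.

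The Nodal ligand and its feedback inhibitors were higher in L122A RA, and several BMP genes were lower. For all described genes the shares were 3.45% higher and 3.83% lower. Of 8 described Nodal pathway genes, 3 were higher and none lower: Nodal at 16.8 CPM in L122A RA and 3.28 CPM in WT RA, Lefty2 at 8.52 and 1.44 CPM, and Lefty1 at 6.56 and 2.22 CPM. Of 11 described BMP pathway genes, none was higher and 4 were lower, with a median of −0.56 over 16 listed. Id3, a direct BMP target that inhibits bHLH factors, read 98.0 CPM in L122A RA and 248 CPM in WT RA. Msx1, a homeobox target, was at 0.897 CPM in L122A RA and 5.03 CPM in WT RA, and Smad9, a BMP signal transducer, at 4.65 CPM and 14.2 CPM.

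Of 11 described LIF and STAT3 pathway genes, none was higher and 4 were lower in L122A RA (3.45% and 3.83% of all described genes). Lifr, the LIF receptor, read 20.02 CPM in L122A RA and 54.6 CPM in WT RA, a WT over L122A ratio of 2.73 (2.50 to 2.98). The feedback inhibitor Socs3 and the oncostatin M receptor Osmr were at 2.10 and 2.30 CPM in L122A RA, against 5.03 and 5.94 CPM in WT RA. On the log2(FPKM + 1) scale Socs3 and Osmr were within 2-fold, at −0.71 and −0.66.

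Extraembryonic endoderm genes were lower in L122A RA, where 3.83% of all described genes were lower. Of 21 described, 18 were lower in L122A RA and none higher, all 27 listed lay below 0, and the median was −1.65. Cubn (cubilin, mm9 chr2:13197964-13413551), an uptake receptor of visceral endoderm, read 4.32 CPM in L122A RA and 69.9 CPM in WT RA, against 6.10 CPM in EGFP RA, a WT over L122A ratio of 16.2 (13.8 to 19.2). Ttr, a secreted carrier of thyroid hormone and retinol-binding protein, had 5 counts in L122A RA and 253 in WT RA. The transcription factors Foxa2 (1.46 and 8.51 CPM in L122A RA and WT RA), Gata4 (4.68 and 21.8 CPM) and Gata6 (8.86 and 26.9 CPM) were all lower. Basement membrane genes followed, with Col4a1 at 109 CPM in L122A RA and 429 CPM in WT RA, and Lama1 at 67.4 CPM and 209 CPM. Sox7, Lamc1 and Apoe were within 2-fold, with log2 ratios of −0.24, −0.41 and −0.03. The summed level of the list was 1410 CPM in L122A RA, 3458 CPM in WT RA and 4351 CPM in EGFP RA. EGFP RA did not lie on one side of the Nanog libraries gene by gene: Gata4 was at 5.66 CPM and Lama1 at 20.5 CPM there, while Gata6 was at 33.9 CPM.

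**Figure D3:**
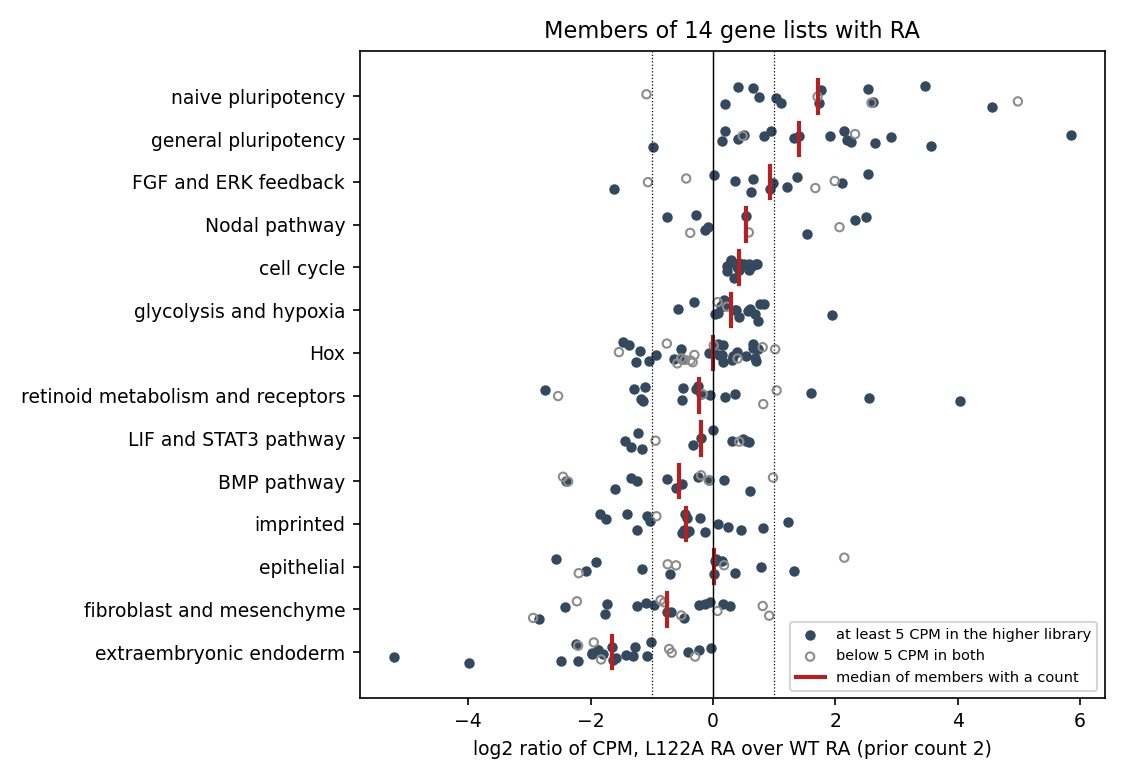
Log2 ratios of L122A RA over WT RA for the members of 14 gene lists, 1 point a gene, filled where the gene reached 5 CPM, with the list median as a bar and dotted lines at 2-fold. Naive and general pluripotency genes have medians of 1.72 and 1.41, and extraembryonic endoderm genes a median of −1.65 with all 27 points below 0.

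Other lineage lists were smaller or mixed, beside 3.45% higher and 3.83% lower among all described genes. Of 15 described fibroblast and mesenchyme genes, 6 were lower and none higher, and the median over the 23 listed genes with a count was −0.75. Acta2, smooth muscle actin, read 72.9 CPM in L122A RA, 392 CPM in WT RA and 3604 CPM in EGFP RA. Col1a2, a fibrillar collagen chain, read 0.981 CPM in L122A RA and 7.505 CPM in WT RA, and was within 2-fold on the log2(FPKM + 1) scale (−0.68). The summed list was at 989 CPM in L122A RA, 1552 CPM in WT RA and 8362 CPM in EGFP RA, and its part in the other differences was not tested. Among 12 described epithelial genes, 4 were lower and 1 higher: the simple-epithelium keratins Krt18 (47.6 and 201 CPM in L122A RA and WT RA), Krt8 (18.5 and 70.0 CPM) and Krt19 (10.8 and 63.9 CPM) and the tight-junction gene Cldn6 were lower, and Cldn3 was higher. Of 7 described neural genes, Stmn2, a microtubule regulator that ES cells also express, was higher (70.1 and 15.5 CPM) and Dcx, a microtubule protein of migrating neurons, was lower (0.449 and 5.85 CPM). Sox1, a defining neural marker, was at 0.168 CPM in L122A RA and 0 counts in WT RA, which allows up to 0.0938 CPM. Eomes, a T-box factor of the primitive streak, was the 1 member of its list past 2-fold, at 6.03 CPM in L122A RA and 1.94 CPM in WT RA. On the log2(FPKM + 1) scale Eomes and Dcx were within 2-fold, at 0.84 and −0.59.

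Genes that read the RA signal were divided. Cyp26a1, the RA-degrading enzyme induced by RA, read 481 CPM in L122A RA and 498 CPM in WT RA, against 103 CPM in EGFP RA, a ratio of 0.966 (0.945 to 0.987). Its relative Cyp26b1 was lower, at 42.2 CPM in L122A RA and 91.6 CPM in WT RA. Of 16 described retinoid genes, 3 were higher and 5 lower (3.45% and 3.83% of all described genes). Higher were Aldh1a3, an RA-making dehydrogenase (22.6 and 1.31 CPM), Lrat, which stores retinol as esters (6.59 and 1.06 CPM), and the receptor Rarg (19.7 and 6.47 CPM). Lower were the retinol carrier Rbp4 (1.85 and 12.8 CPM), its receptor Stra6 (25.3 and 61.9 CPM), and Aldh1a2 (2.69 and 6.16 CPM), the last within 2-fold on the log2(FPKM + 1) scale (−0.80).

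Hox genes as a whole lay near 0, with a median of −0.01 over the 37 with a count. Of 39 listed, 25 were described, with none higher and 5 lower. Among all described genes 3.45% were higher and 3.83% lower. The clusters differed in their values. The 9 described Hoxa genes had a median of 0.10 and none past 2-fold, and the 10 described Hoxb genes a median of 0.35 with only Hoxb13 lower. Of 5 described Hoxc genes, 4 were lower, with a median of −1.20 and a summed level of 33.8 CPM in L122A RA, 66.6 CPM in WT RA and 72.2 CPM in EGFP RA. In the same order the sums were 447, 374 and 230 CPM for Hoxa and 285, 245 and 106 CPM for Hoxb. The early RA-responsive gene Hoxb1 was within 2-fold, at 21.1 CPM in L122A RA and 13.1 CPM in WT RA. Hoxc8 read 12.7 CPM in L122A RA and 30.4 CPM in WT RA, a WT over L122A ratio of 2.39 (2.13 to 2.67).

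Most proliferation and metabolism genes were within 2-fold, as were most described genes. Among all described genes 3.45% were higher and 3.83% lower, 7.27% in all, and the median log2 ratio was 0.01. All 16 cell cycle genes lay above 0, with log2 ratios of 0.22 to 0.72, and none was past 2-fold. The D-type cyclins, which drive G1, split: Ccnd3 (101 and 39.1 CPM in L122A RA and WT RA) and Ccnd1 (13.0 and 5.22 CPM) were higher and Ccnd2 (1.51 and 5.13 CPM) lower. Of 18 described glycolysis and hypoxia genes, 16 lay above 0, and only the glucose transporter Slc2a1 was past 2-fold, at 682 CPM in L122A RA and 178 CPM in WT RA. Of 9 described DNA methylation genes, 2 were higher and none lower. They were the de novo methyltransferase Dnmt3b (51.2 and 23.4 CPM) and its cofactor Dnmt3l (6.70 and 2.47 CPM), with Dnmt3l within 2-fold on the log2(FPKM + 1) scale (0.93). Of 19 described imprinted genes, 6 were lower and 1 higher, beside 3.83% and 3.45% of all described genes. Mest read 914 CPM in L122A RA and 392 CPM in WT RA, while the growth factor Igf2 read 58.6 CPM and 211 CPM. Of 12 described germ cell genes, 2 were higher and none lower. They were Dazl, an RNA-binding protein (37.5 and 12.01 CPM), and Prdm1, a repressor of somatic genes (30.9 and 14.3 CPM). Prdm1 was at 0.96 on the log2(FPKM + 1) scale. Zscan4c, of a near-identical gene family whose reads may be split, read 5.69 CPM in L122A RA and 0.594 CPM in WT RA.

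Outside the lists, the highest ratios included several genes nearly unread in WT RA. Inhbb, the activin B subunit, had 398 counts in L122A RA and 2 in WT RA, a ratio of 178 with an interval of 49.1 to 1479. Robo4, an endothelial guidance receptor, had 270 counts in L122A RA and 4 in WT RA. Msc, a bHLH repressor, read 13.4 CPM in L122A RA and 0.344 CPM in WT RA. Cyp11a1, the enzyme that starts steroid synthesis, read 37.0 CPM in L122A RA and 2.50 CPM in WT RA and had no count in EGFP RA. Among well-expressed genes, Cobl, an actin nucleator, read 80.5 CPM in L122A RA and 6.41 CPM in WT RA.

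The lowest ratios were led by Klb (beta-Klotho), the co-receptor of endocrine FGFs, with 5 counts in L122A RA and 469 in WT RA. It read 0.140 CPM in L122A RA and 14.7 CPM in WT RA, against 0.467 CPM in EGFP RA. S100g, a calcium-binding protein, read 1.07 CPM in L122A RA and 32.6 CPM in WT RA, against 1.09 CPM in EGFP RA. For Klb, S100g and Cubn, WT RA therefore stood above both other RA libraries. Fat4, an atypical cadherin, differed in that respect, at 0.701 CPM in L122A RA and 16.6 CPM in WT RA but 35.5 CPM in EGFP RA. Ecm1, a secreted matrix protein, was graded across the transfectants, at 71.4 CPM in L122A RA, 545 CPM in WT RA and 1090 CPM in EGFP RA.

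Set against EGFP RA, most of the higher genes were ordered L122A above WT above EGFP: 261 of 356, with EGFP between the Nanog libraries for 76 and above both for 19. These orders take any difference, however small, and were not counted over all described genes. L122A RA was at least 2-fold above EGFP RA for 294 of the 356 and WT RA for 136. WT RA was within 2-fold of EGFP RA for 190 and at least 2-fold below EGFP RA for 30. Of the 395 lower genes, EGFP RA was above WT RA for 216, between the Nanog libraries for 148 and below both for 31. At 2-fold or more, L122A RA was below EGFP RA for 284 of the 395 and above EGFP RA for 8. For the same genes WT RA was below EGFP RA for 103, above for 63 and within 2-fold for 229. Like the orders, these 2-fold counts were not made over all described genes. The genes were chosen by their L122A RA and WT RA levels, so their places against EGFP RA are not independent of that choice.

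The change between the RA and LIF cultures of EGFP cells comes from libraries that the L122A and WT values do not use; these cultures differ both in RA and in LIF. In EGFP cells 538 genes were at least 4-fold lower in the RA culture than in the LIF culture (4.99% of 10774 with 5 CPM in either) and 1148 at least 4-fold higher (10.7%). The 538 lower genes had a median log2 ratio of L122A RA over WT RA of 0.69, and 81.6% lay above 0. The class medians cover all members, of which 312 of the 538 reached 5 CPM in L122A RA or WT RA. The 1148 higher genes, of which 935 reached that level, had a median of −0.55, and 16.9% lay above 0. With the classes set between the RA and no-LIF cultures of EGFP cells, both without LIF, the medians were 0.36 for the lower and −0.46 for the higher genes. All 10774 genes had a median of 0.00. The medians were graded over the classes of change between the RA and LIF cultures of EGFP cells, with 1.38 for 188 genes at least 16-fold lower and −1.02 for 253 genes at least 16-fold higher. Of those 188 and 253 genes, 88 and 178 reached 5 CPM in L122A RA or WT RA. Counted from the other side, 50.8% of the genes higher in L122A RA were at least 2-fold lower in EGFP RA than in EGFP LIF, against 13.7% of all described genes; among the 10774 genes this share was 16.5%. Of the genes lower in L122A RA, 72.2% were at least 2-fold higher in EGFP RA than in EGFP LIF, against 22.0% of all described genes and 23.7% of the 10774.

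**Figure D4:**
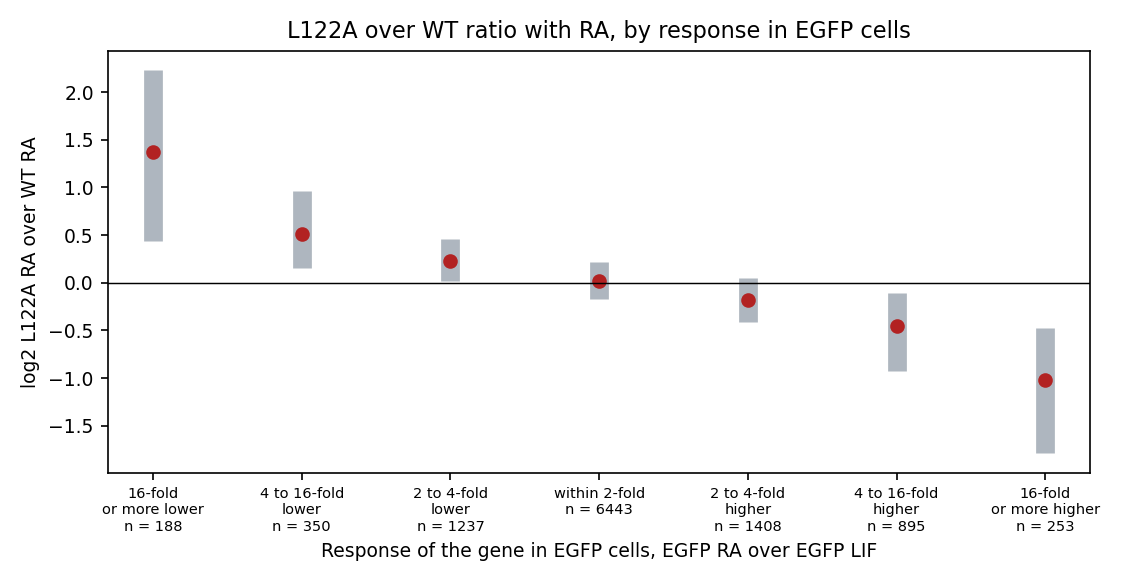
Median (point) and quartiles (bar) of the log2 ratio of L122A RA over WT RA for 7 classes of genes, set by their change between the RA and LIF cultures of EGFP cells, with the number of genes under each. Medians run from 1.38 in the class 16-fold or more lower to −1.02 in the class 16-fold or more higher. Genes under 5 CPM in both L122A RA and WT RA are included.

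Genes past 2-fold with RA were looked up in the other cultures where they reached 5 CPM. With LIF, 3.53% of 9845 genes were past 2-fold between the Nanog transfectants (1.79% higher and 1.75% lower in L122A), and without LIF 8.07% of 9985 (3.91% higher and 4.17% lower). Of the 296 genes higher in L122A RA and at 5 CPM with LIF, 29 were also higher there, 12 lower and 255 within 2-fold. Those 12 included Lefty2 (22.7 CPM in L122A LIF and 58.25 CPM in WT LIF) and Robo4 (2.35 and 5.61 CPM). Without LIF, 292 genes higher in L122A RA were at that level, of which 54 were higher, 14 lower and 224 within 2-fold. Those 14 included Slc2a1 (326 CPM in L122A no-LIF and 763 CPM in WT no-LIF), Dnmt3b (98.1 and 426 CPM) and Prdm1 (2.02 and 5.59 CPM). Of the 395 genes lower in L122A RA, 127 reached the level with LIF, with 15 also lower, 2 higher and 110 within 2-fold, and 154 reached it without LIF, with 37 lower, 9 higher and 108 within 2-fold. The other lower genes were under 5 CPM in those cultures and are not compared there. The number of genes at 5 CPM in all 3 cultures was not counted. In L122A cells, 12 genes were higher and 4 lower in all 3 cultures. Among them was Arl14epl, which read 234, 172 and 492 CPM in the LIF, no-LIF and RA cultures of L122A cells, against 61.4, 11.2 and 60.9 CPM in those of WT cells. Msln (mesothelin, a surface protein), Adap1, Ctnnal1 and Samd9l were also higher in all 3, and Cldn6, Lgals9 and Arhgap28 lower, of which Lgals9 was within 2-fold with RA on the log2(FPKM + 1) scale (−0.89). No gene past 2-fold with RA was past 2-fold the other way in both other cultures.

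**Figure D5:**
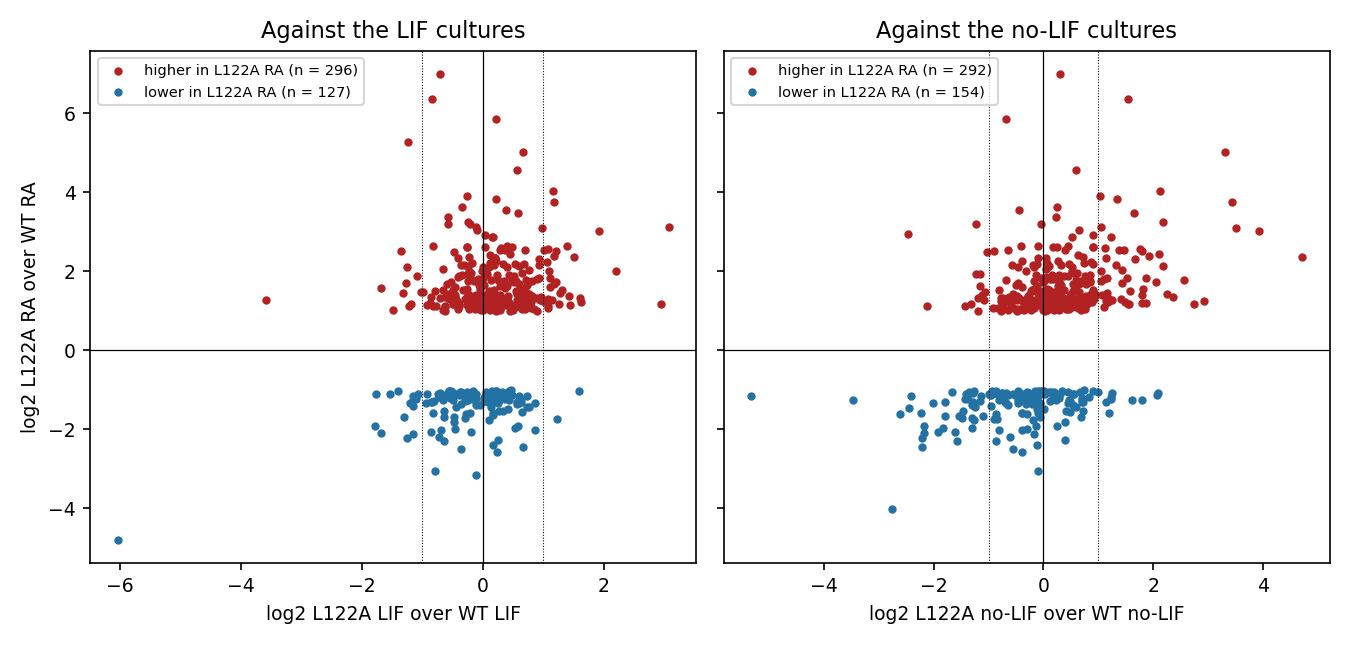
Log2 ratio of L122A over WT with RA (y axis) against the same ratio with LIF (left) and without LIF (right), for genes past 2-fold with RA that reached 5 CPM in that culture, with dotted lines at 2-fold. Of 296 higher genes measured with LIF 255 lie between the dotted lines, and of 292 measured without LIF 224 do.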

How the data were processed

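RNA of 9 cultures of RF8 cells (3 transfectants in 3 cultures, 1 library each) was sequenced on Illumina libraries. The submitters' processing notes name TopHat2 2.0.11 and the mm9 build; no counting program is given in the sources used here. The deposited gene count is raw, made by the authors and not normalized, per the file headers. The deposited FPKM equalled the count divided by gene length and library total, in FPKM units, within 1% for 100% of genes above 5 FPKM in both RA libraries. A column name found in no label was assigned to LIF by elimination, and L122 was read as L122A.

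Counts were scaled by TMM factors from edgeR 4.0.16 (R 4.3.3) over genes reaching 1 CPM in 3 or more libraries (1.255 for L122A RA, 1.223 for WT RA). Ratios, exact conditional binomial 95% intervals and lists were computed with scipy 1.17.1, pandas 2.3.3 and numpy 2.4.6 under Python 3.11.15, figures with matplotlib 3.10.9, and the ratio code was tested on simulated data. The members and lists were chosen with earlier results of these data known. Named are Nanog, the 12 largest ratios each way, the 6 largest each way at 50 CPM or more, up to 3 members each way per list (30 lists, 483 of 492 entries matched), and genes past 2-fold in all 3 cultures; some are not reported here, and other list members named were chosen after their values were seen. Symbols came from a newer annotation (28692 of 33495 identifiers matched). Alternatives were other scalings, prior counts, level limits, call rules, FPKM and EGFP classes.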

Additional observations from a re-analysis of the deposited data

How the results depend on the processing

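With 1 library a culture, no spread between cultures can be given, and no library can be left out. No paired analysis was possible because no combination has a replicate and the labels carry no replicate numbers. The 356 higher and 395 lower genes were 702 and 824, with 59 in place of 16 shared by all 3 cultures, at a limit of 1 CPM. At 20 CPM they were 173 and 159, with 6 shared. With log2(FPKM + 1), 211 genes were lower and 9 shared, 260 were higher, and the median of genes higher in EGFP RA than in EGFP LIF was −0.44. Setting the EGFP response against no-LIF gave a median of 0.36 for the lower genes, and 2-fold classes gave 0.31 and −0.30. Total counts gave 414 higher and 415 lower, and intervals wholly past 2-fold 269 and 267. The share of calls that were higher was 47.4%, and between 46.0% and 55.2% under the other settings of scale, prior, level and unit. Of 101 named genes past 2-fold, 16 were no longer so with log2(FPKM + 1), where low genes are compressed (among them Aldh1a2, Col1a2, Dcx, Dnmt3l, Eomes, Hmga1, Kcnq5, Lgals9, Meis3, Myl4, Osmr, Prdm1, Socs3, Tbx2 and Tead4), none was lost under the other scalings or prior count, and none reversed.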
